A study of Mus musculus with 18 samples.

Results

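The interferon response genes examined here are 42 mouse genes that are switched on by type I or type II interferon, measured by RNA sequencing in the caput epididymis, the segment of the duct next to the testis where sperm begin to mature. They were matched to the count tables by gene symbol. All 42 were found among the 53819 gene entries of the count tables, and all 42 were among the 18618 genes with enough counts to be tested. The 18 libraries came from C57BL/6J mice and form 6 groups of 3. Controls, mice treated with 6% EtOH and mice treated with 10% EtOH were taken at 10 weeks, and 3 further groups with the same treatment names were taken after the ethanol was stopped, a pause that the series title gives as 1 month. No group carries a transgene or a deletion by its labels. The labels used here name no route for the ethanol, no control drink, no age and no shared litter, cage or day, so p-values measure the spread between these libraries, which may be technical in part.

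Interferons are secreted alarm proteins. Type I interferons, made by many cells that sense foreign nucleic acid, and interferon gamma, made mainly by T cells and natural killer (NK) cells, bind receptors whose kinases activate STAT proteins. STAT2 and IRF9 are parts of the complex that binds a DNA motif called the ISRE, while STAT dimers activated by interferon gamma bind a motif called GAS. The genes reached in this way encode proteins that block viruses, GTPases that attack vacuoles holding microbes, the machinery that loads peptides onto MHC class I, and chemokines that draw T cells. In the epididymis such responses must act beside sperm, which carry antigens that the body can treat as foreign.

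The caput label was checked against markers of its principal cells, the secretory cells of the epithelium. All 12 of these markers were tested, and their summed level lay between 37636 and 130516 counts-per-million (CPM, scaled to library size by TMM) in the 18 libraries. Each library held 15599991 to 21067237 assigned reads at 10 weeks and 10719320 to 17197177 after cessation. Libraries of 1 group differed beyond counting noise, by a chi-square of at least 5.79 per degree of freedom, so each counts as its own sample. The identifier in the title of 6% EtOH cessation replicate 1 differs from the identifier in the header of its count table, and 10% EtOH 10 weeks replicate 3 carries an identifier of another kind than its group. In control cessation replicate 3 and 6% EtOH cessation replicate 1 the principal cell markers summed to 37636 and 37726 CPM, against at least 68295 CPM in every other library.

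Promoters are shown first because the 42 genes were grouped by their known response to interferon and the data below show many of them moving together from library to library. RefSeq promoters of build GRCm38.p6 were at hand for 32 of the 42 genes, and the 250 bases before each start site were searched on both strands for the ISRE (GAAA, any 2 bases, GAAA) and for GAS (TTCNNNGAA), which can overlap. The ISRE was found in 18 of 32 promoters (56.2%), against 936 of 27025 genes (3.46%) in windows of the same length. GAS was found in 9 of 32 (28.1%), against 8.13% of all genes. At least 1 of the motifs was present in 21 of 32 (65.6%), against 11.1%. An ISRE was present in all 7 GTPase promoters at hand (Gbp2, Gbp3, Gbp5, Gbp7, Igtp, Irgm1 and Irgm2) and in 8 of 14 antiviral effector promoters. A match shows only that the letters are there. The windows of Psmb9 and Tap1 overlap on opposite strands, so they are not separate sequences, and neither held a motif. For each role with a motif, the promoter with the most motifs is printed below, and where several tied (Irf1 with Stat2, Isg15 and Oas1a with Bst2, Gbp5 with Gbp7, Psmb8 with B2m) the one of the gene with the higher mean CPM. The 1 sensor promoter at hand held no motif and is not shown. Sequences run 5′ to 3′ on the gene's strand and end at the base before the start site, with the motifs in capitals. Stat2 lies at chr10:128270248-128270497 on the plus strand, Bst2 at chr8:71537473-71537722 on the minus strand, Gbp7 at chr3:142530086-142530335 on the plus strand, B2m at chr2:122147437-122147686 on the plus strand and Cxcl10 at chr5:92348890-92349139 on the minus strand.
Stat2: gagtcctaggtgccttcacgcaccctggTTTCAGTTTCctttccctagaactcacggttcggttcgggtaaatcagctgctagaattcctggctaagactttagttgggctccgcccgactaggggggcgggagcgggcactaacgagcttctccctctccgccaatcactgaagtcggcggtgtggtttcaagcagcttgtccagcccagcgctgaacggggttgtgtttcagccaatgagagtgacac
Bst2: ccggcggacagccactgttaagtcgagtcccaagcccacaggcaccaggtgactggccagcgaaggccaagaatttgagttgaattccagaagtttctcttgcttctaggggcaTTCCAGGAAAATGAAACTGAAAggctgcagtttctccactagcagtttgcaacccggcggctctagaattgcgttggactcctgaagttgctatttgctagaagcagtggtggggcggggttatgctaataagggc
Gbp7: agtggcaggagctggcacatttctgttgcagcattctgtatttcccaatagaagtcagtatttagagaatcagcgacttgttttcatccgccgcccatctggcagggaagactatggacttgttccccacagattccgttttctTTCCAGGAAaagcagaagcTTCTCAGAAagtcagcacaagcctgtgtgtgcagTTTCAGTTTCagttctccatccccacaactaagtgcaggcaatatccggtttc
B2m: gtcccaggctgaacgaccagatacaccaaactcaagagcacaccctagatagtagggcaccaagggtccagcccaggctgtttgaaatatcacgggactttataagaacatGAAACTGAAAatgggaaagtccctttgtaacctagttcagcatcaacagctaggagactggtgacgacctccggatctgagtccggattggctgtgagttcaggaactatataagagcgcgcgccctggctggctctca
Cxcl10: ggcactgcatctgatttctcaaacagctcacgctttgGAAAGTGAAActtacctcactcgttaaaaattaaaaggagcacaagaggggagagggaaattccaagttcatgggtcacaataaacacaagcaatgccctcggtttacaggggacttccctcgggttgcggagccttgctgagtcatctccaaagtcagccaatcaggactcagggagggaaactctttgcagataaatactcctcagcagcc
In Bst2 a GAS motif runs into a pair of overlapping ISRE motifs, which makes a single block of capitals that begins 136 bases before the start site. Gbp7 holds a GAS pair and, closer to the start site, an ISRE. The ISRE begins 222 bases before the start site in Stat2 and 139 bases before it in B2m.

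Across the 18 libraries the interferon response genes followed a common course that did not match the treatment groups. They stood highest in control cessation replicate 1 and next highest in control cessation replicate 3, while control cessation replicate 2 lay at the level of the 10-week libraries. Against the median of the 9 libraries of 10 weeks, the median member was 1.70 higher on the log2 scale in control cessation replicate 1, 1.11 higher in replicate 3 and 0.25 lower in replicate 2 (a log2 ratio of -0.25). In 6% EtOH cessation the median log2 ratios were 0.65, 0.64 and 0.03 in replicates 1, 2 and 3, and in 10% EtOH cessation they were -0.23, 0.16 and 0.12. Control cessation replicate 1 held the highest value of 32 of the 42 genes (76.2%), and of 5.18% of all tested genes. Control cessation replicate 3 held the highest value of 5 of the 42 and of 13.5% of all tested genes. In control cessation replicate 1, 39 of 42 members lay above the whole range of the 10-week libraries, as did 21.98% of all tested genes, with Irf9, Ifit1 and Trim30a the exceptions. The count was 32 of 42 in control cessation replicate 3 (30.7% of all tested genes) and 1 of 42 in replicate 2 (7.78%). It was 21, 23 and 3 of 42 in the 6% EtOH cessation replicates (31.2%, 19.0% and 15.4% of all tested genes), and 2, 6 and 6 of 42 in the 10% EtOH cessation replicates (10.3%, 19.6% and 21.9%).

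**Figure D1:**
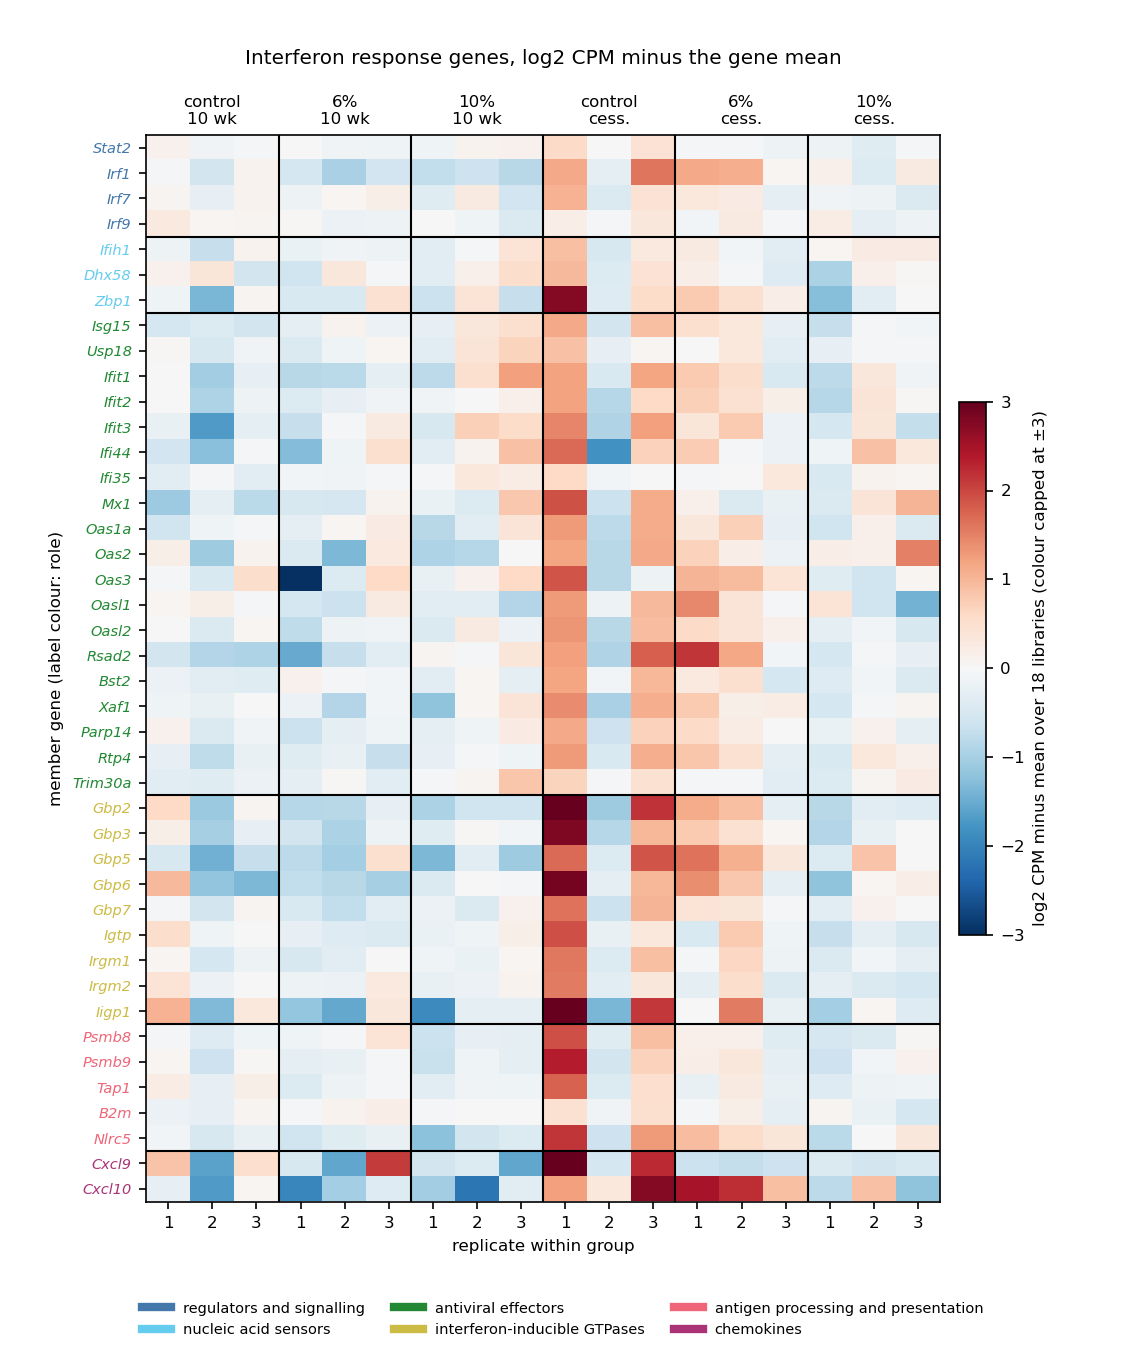
Level of the 42 interferon response genes (rows, label colour by role) in the 18 libraries (columns, by group and replicate), as log2 CPM minus the gene's mean over the libraries, with the colour capped at 3 in either direction. Control cessation replicates 1 and 3 are red over most rows, 6% EtOH cessation replicates 1 and 2 are red over fewer, and control cessation replicate 2 is pale or blue like the libraries of 10 weeks.

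The spread within the control cessation group was accordingly wide. The median SD of a member's log2 CPM was 1.14 there, against 0.36 for all tested genes, and 39 of the 42 members were above that value for all genes. In controls at 10 weeks it was 0.32, against 0.17 for all genes, with 34 of 42 members above. In the other 4 groups the median SD of the members was 0.27 to 0.34, against 0.19 to 0.34 for all genes. The first principal component of the 42 genes held 69.4% of their variance and the second 8.67%. On the first, control cessation replicates 1 and 3 lay at 11.4 and 6.92, 6% EtOH cessation replicates 1 and 2 at 3.86 and 3.38, and all other libraries at 0.38 or below.

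Of the 4 regulators Irf9 varied least between libraries and Irf1 most. Irf9, the DNA-binding partner of STAT2, had 35.9, 49.3 and 60.0 CPM as its lowest, median and highest level at 10 weeks. After cessation its CPM was 55.8, 48.0 and 61.6 in controls, 46.5, 58.9 and 47.7 with 6% EtOH and 56.7, 40.7 and 43.7 with 10% EtOH, so the groups overlapped. Stat2 itself had 45.3, 47.8 and 54.9 CPM as its lowest, median and highest level at 10 weeks. Its CPM after cessation was 74.1, 49.0 and 67.7 in controls, 48.7, 47.5 and 44.8 with 6% EtOH and 44.5, 38.4 and 48.7 with 10% EtOH. All 3 controls lay above all 6 EtOH libraries, though control cessation replicate 2 was higher than the nearest EtOH library by less than 1 CPM. Irf1, a transcription factor that interferon gamma induces directly, had 10.9, 14.5 and 23.1 CPM as its lowest, median and highest level at 10 weeks. After cessation it had 47.1, 17.8 and 65.4 CPM in controls, 47.1, 46.1 and 22.4 CPM with 6% EtOH and 23.8, 16.2 and 26.1 CPM with 10% EtOH. Irf1 was thus highest in control cessation replicate 3, and both 6% EtOH cessation replicates 1 and 2 matched control cessation replicate 1. Irf7, which amplifies type I interferon production, had 13.8 to 25.0 CPM at 10 weeks, 42.5, 15.4 and 27.8 CPM in the controls after cessation, 25.7, 24.8 and 17.1 CPM with 6% EtOH and 19.2, 18.6 and 15.4 CPM with 10% EtOH.

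The sensors of foreign nucleic acid were less abundant. Ifih1, which encodes the double-stranded RNA sensor MDA5, had 9.12, 13.3 and 19.9 CPM as its lowest, median and highest level at 10 weeks. After cessation its CPM was 28.0, 10.6 and 18.3 in controls, 17.9, 14.1 and 11.6 with 6% EtOH and 15.4, 17.7 and 17.6 with 10% EtOH. Dhx58, which encodes the related protein LGP2, had 2.42, 4.11 and 5.43 CPM as its lowest, median and highest level at 10 weeks. The controls after cessation had 7.36, 2.76 and 5.03 CPM of Dhx58, the 6% EtOH libraries 4.32, 3.61 and 2.83 CPM and the 10% EtOH libraries 1.86, 4.13 and 3.82 CPM. Zbp1, a sensor of left-handed nucleic acid that can start cell death, had 0.62, 1.28 and 2.54 CPM as its lowest, median and highest level at 10 weeks. In controls after cessation it had 12.9, 1.35 and 2.71 CPM, so that control cessation replicate 1 alone stood at 10.1 times the 10-week median and replicate 3 at 2.12 times. With 6% EtOH after cessation Zbp1 had 3.20, 2.56 and 2.08 CPM, and with 10% EtOH 0.66, 1.43 and 1.80 CPM.

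Most of the 19 antiviral effectors moved together, with Ifi35 and Oasl1 following the other members least, but over a smaller range than the GTPases. Their median log2 ratio to the 10-week median was 1.49 in control cessation replicate 1, 1.16 in replicate 3 and -0.34 in replicate 2. Isg15, a ubiquitin-like protein that is joined to other proteins, had 3.90, 4.28 and 3.88 CPM in controls at 10 weeks, 4.65, 6.16 and 5.01 CPM with 6% EtOH and 4.82, 7.25 and 8.02 CPM with 10% EtOH. At 10 weeks the 3 controls were thus below all 6 EtOH libraries in Isg15. After cessation Isg15 had 12.7, 3.87 and 10.8 CPM in controls, 7.94, 7.16 and 4.81 CPM with 6% EtOH and 3.45, 5.56 and 5.33 CPM with 10% EtOH. Bst2, which tethers budding virus to the cell surface, had 8.21 to 11.6 CPM at 10 weeks. After cessation its CPM was 24.4, 9.94 and 21.1 in controls, 13.1, 14.7 and 7.26 with 6% EtOH and 8.03, 10.1 and 7.86 with 10% EtOH. Rsad2, which encodes the antiviral enzyme viperin, had 2.36, 1.86 and 1.79 CPM in controls at 10 weeks, 1.15, 2.15 and 2.74 CPM with 6% EtOH and 3.77, 3.35 and 4.60 CPM with 10% EtOH. After cessation Rsad2 had 8.49, 1.84 and 12.4 CPM in controls, 16, 8.08 and 3.30 CPM with 6% EtOH and 2.39, 3.38 and 2.96 CPM with 10% EtOH. Its highest library was 6% EtOH cessation replicate 1, not a control.

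Among the other antiviral effectors, Ifit3, an RNA-binding protein, had 6.26, 2.20 and 5.96 CPM in controls at 10 weeks and 5.27, 12.1 and 10.8 CPM with 10% EtOH. Its relative Ifit1 had 5.39, 2.53 and 4.45 CPM in those controls and 3.01, 7.45 and 12.6 CPM with 10% EtOH, and 10% EtOH 10 weeks replicate 3 held the highest Ifit1 of all 18 libraries. The third member of that family, Ifit2, had 3.88 to 8.32 CPM at 10 weeks, and 17.4, 4.11 and 11.4 CPM in the controls after cessation. Trim30a, a ubiquitin ligase, had 11.3, 10.9 and 12.4 CPM in controls at 10 weeks, 11.3, 14.3 and 11.2 CPM with 6% EtOH and 13.7, 14.8 and 25.1 CPM with 10% EtOH. Ifi35 had 16.3, 19.5 and 16 CPM in controls at 10 weeks and 19.6, 25.4 and 23.8 CPM with 10% EtOH. In both genes every 10% EtOH library of 10 weeks lay above every control, and in Trim30a replicate 3 held the highest level of all 18 libraries.

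The oligoadenylate synthetase family, which activates an enzyme that cuts RNA, was near the lower limit of what was tested. Oas2 had 0.35 to 1.33 CPM at 10 weeks and 2.61, 0.55 and 2.51 CPM in controls after cessation, and its highest level, 3.32 CPM, was in 10% EtOH cessation replicate 3. Oas3 was at 0 counts in 6% EtOH 10 weeks replicate 1 and at up to 1.53 CPM in the other libraries of 10 weeks. In control cessation replicates 1, 2 and 3 Oas3 had 3.92, 0.49 and 0.86 CPM, so replicate 3 did not share the high level there. Oas1a had 1.71 to 4.19 CPM at 10 weeks and 7.84, 1.78 and 7.01 CPM in controls after cessation. The related Oasl1 had 0.47 to 1.20 CPM at 10 weeks and 2.55, 0.86 and 2.05 CPM in those controls, with its highest level, 2.85 CPM, in 6% EtOH cessation replicate 1. Oasl2 was more abundant, at 6.43 to 13.2 CPM at 10 weeks and 27.8, 6.14 and 21.0 CPM in controls after cessation. Mx1, an antiviral GTPase of which C57BL/6J mice carry a defective allele, had 0.46 to 2.06 CPM at 10 weeks and 4.51, 0.68 and 2.58 CPM in controls after cessation. The remaining effectors held the same order, with control cessation replicate 1 highest and replicate 2 lowest among the controls after cessation. They are Parp14 (61.6, 17.9 and 44.6 CPM in control cessation replicates 1, 2 and 3), Usp18, which removes ISG15 from proteins (12, 5.40 and 6.68 CPM), Rtp4 (10.9, 3.19 and 9.53 CPM), Xaf1 (9.20, 1.66 and 7.41 CPM) and Ifi44 (7, 0.49 and 3.37 CPM).

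The interferon-inducible GTPases, which gather on membranes around microbes, had the widest range. Iigp1 had 23.5, 4.45 and 14.2 CPM in controls at 10 weeks, 5.03, 3.83 and 14.4 CPM with 6% EtOH and 2.96, 9.32 and 9.26 CPM with 10% EtOH. After cessation its CPM was 192, 4.29 and 50.3 in controls, 11.4, 33.7 and 9.81 with 6% EtOH and 5.57, 11.9 and 8.72 with 10% EtOH. Control cessation replicate 1 thus stood at 20.8 times the 10-week median and replicate 3 at 5.43 times, while replicate 2 was lower than all but 2 of the 10-week libraries. Gbp2, a guanylate-binding protein, had 4.67, 6.71 and 15.6 CPM as its lowest, median and highest level at 10 weeks. It had 99.1, 4.85 and 46.2 CPM in controls after cessation, 22.4, 19.2 and 8.30 CPM with 6% EtOH and 5.71, 8.12 and 7.79 CPM with 10% EtOH. The order of the libraries was the same in Gbp3, at 40.0, 3.07 and 11.4 CPM in control cessation replicates 1, 2 and 3, in Gbp6 at 7.60, 0.74 and 1.98 CPM and in Gbp7 at 26.6, 5.40 and 17.3 CPM. Gbp5 was the exception, with 8.37, 1.84 and 9.59 CPM in control cessation replicates 1, 2 and 3, so that replicate 3 was highest.

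The immunity-related GTPases of the IRGM group differed between the libraries after cessation. Irgm1 had 104, 26.1 and 65.7 CPM in controls after cessation and 33.4, 54.1 and 31.3 CPM with 6% EtOH. Igtp, also called Irgm3, had 14.3 to 27.8 CPM at 10 weeks, and 74.6, 16.6 and 24.2 CPM in controls after cessation, so only replicate 1 was above the 10-week range. In 6% EtOH cessation the CPM of Igtp was 14.1, 33.4 and 17.5, and in 10% EtOH cessation 12, 15.9 and 13.9. Irgm2 had 21.5 to 33.0 CPM at 10 weeks, 73.8, 19.8 and 31.5 CPM in controls after cessation and 20.8, 35.8 and 18.5 CPM with 6% EtOH. 6% EtOH cessation replicate 1 was below the 10-week range in Igtp and Irgm2 and above it in 5 of 5 guanylate-binding proteins, while replicate 2 was above it in 8 of 9 GTPases, with Gbp6 the exception.

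Antigen processing genes showed the same libraries high. Psmb8, a subunit of the immunoproteasome that cuts peptides for MHC class I, had 6.73, 9.60 and 14.1 CPM as its lowest, median and highest level at 10 weeks. After cessation it had 40.5, 8.10 and 19.8 CPM in controls, 11.7, 11.8 and 8.11 CPM with 6% EtOH and 7.37, 7.74 and 10.7 CPM with 10% EtOH. Its partner subunit Psmb9 had 38.0, 4.97 and 11.9 CPM in controls after cessation against 4.57 to 7.65 CPM at 10 weeks. Tap1, which carries peptides into the endoplasmic reticulum, had 81.7, 17.9 and 33.9 CPM in those controls against 17.9 to 27.6 CPM at 10 weeks. Nlrc5, the activator of MHC class I genes, had 31.3, 4.48 and 16.9 CPM there against 2.91 to 6.57 CPM at 10 weeks. B2m, the light chain of MHC class I, was the most abundant member per length of transcript, at a mean of 810 CPM per kilobase over the 18 libraries against 15.1 CPM per kilobase for the next, Ifi35. Of the 5 antigen processing genes it moved least in proportion, with 948, 640 and 962 CPM in controls after cessation against 578 to 794 CPM at 10 weeks.

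The chemokine pair did not keep the same order. Cxcl9, which interferon gamma induces and which draws T cells, had 1.80, 0.23 and 1.39 CPM in controls at 10 weeks, 0.64, 0.23 and 4.41 CPM with 6% EtOH and 0.60, 0.67 and 0.24 CPM with 10% EtOH. After cessation it had 21.6, 0.61 and 4.89 CPM in controls, 0.56, 0.53 and 0.57 CPM with 6% EtOH and 0.66, 0.60 and 0.65 CPM with 10% EtOH. Control cessation replicate 1 stood at 33.8 times the 10-week median of Cxcl9, the highest ratio of any of the 42 members there. Cxcl10, which shares the receptor of Cxcl9 and also answers type I interferon, had 2.36, 0.79 and 2.95 CPM in controls at 10 weeks, 0.64, 1.34 and 2.14 CPM with 6% EtOH and 1.30, 0.54 and 2.24 CPM with 10% EtOH. After cessation its CPM was 6.83, 3.56 and 19.8 in controls, 16.2, 13.5 and 5.38 with 6% EtOH and 1.59, 5.33 and 1.15 with 10% EtOH. Cxcl10 was thus highest in control cessation replicate 3 and high in 6% EtOH cessation replicates 1 and 2, where Cxcl9 stayed within its 10-week range.

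**Figure D2:**
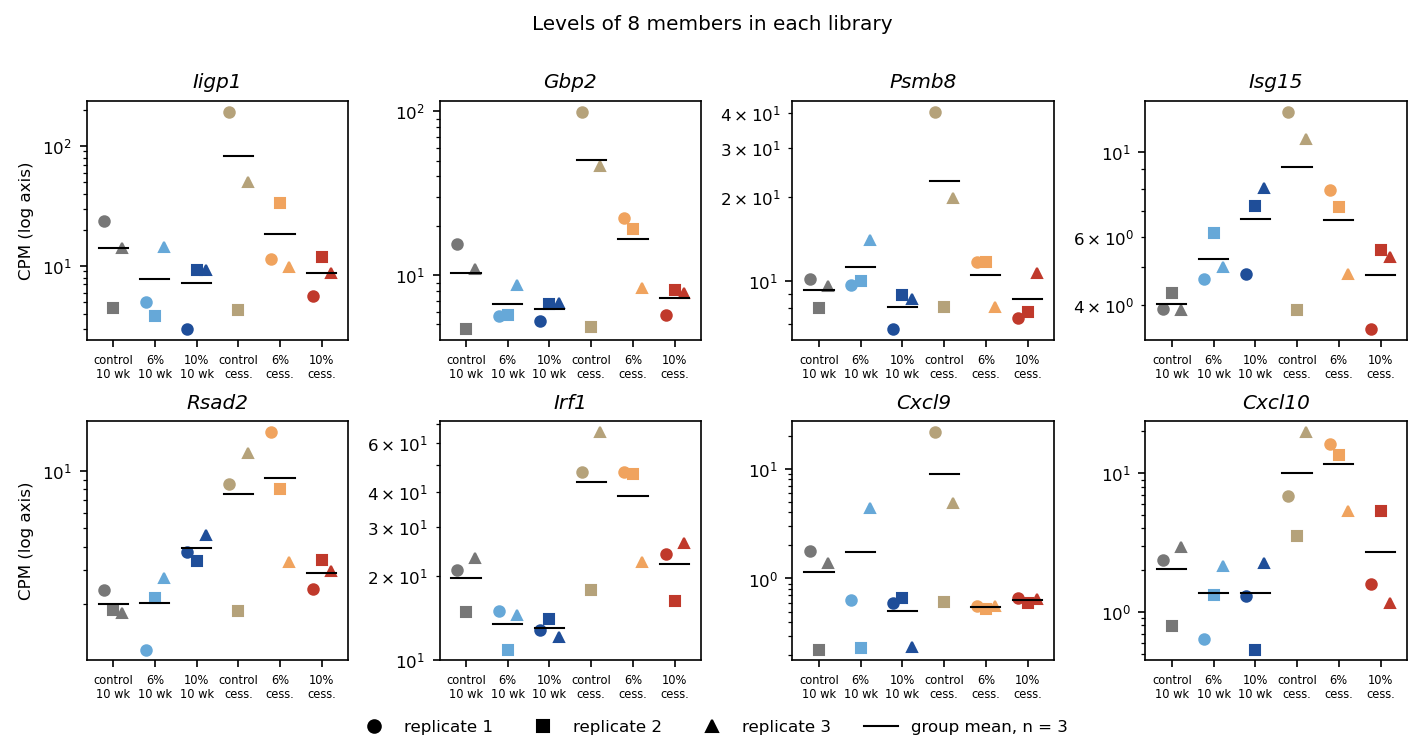
CPM (log axis) of 8 interferon response genes in every library, by group, with marker shape for the replicate and a bar for the group mean (n = 3). Iigp1, Gbp2 and Psmb8 peak in control cessation replicate 1, Cxcl10 and Irf1 peak in replicate 3, Rsad2 peaks in 6% EtOH cessation replicate 1, and control cessation replicate 2 is the lowest of the 3 controls after cessation in all 8.

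The 2 high control libraries of the cessation set therefore differed from each other. Of the 42 members, 36 were higher in replicate 1 and 6 in replicate 3. The 6 were Irf1, Irf9, Rsad2, Gbp5, B2m and Cxcl10. The median log2 ratio to the 10-week median was 2.50 against 1.34 for the GTPases and 2.06 against 0.90 for antigen processing in replicates 1 and 3, while for the antiviral effectors it was 1.49 against 1.16. With 1 library each this difference has no replicate check.

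**Figure D3:**
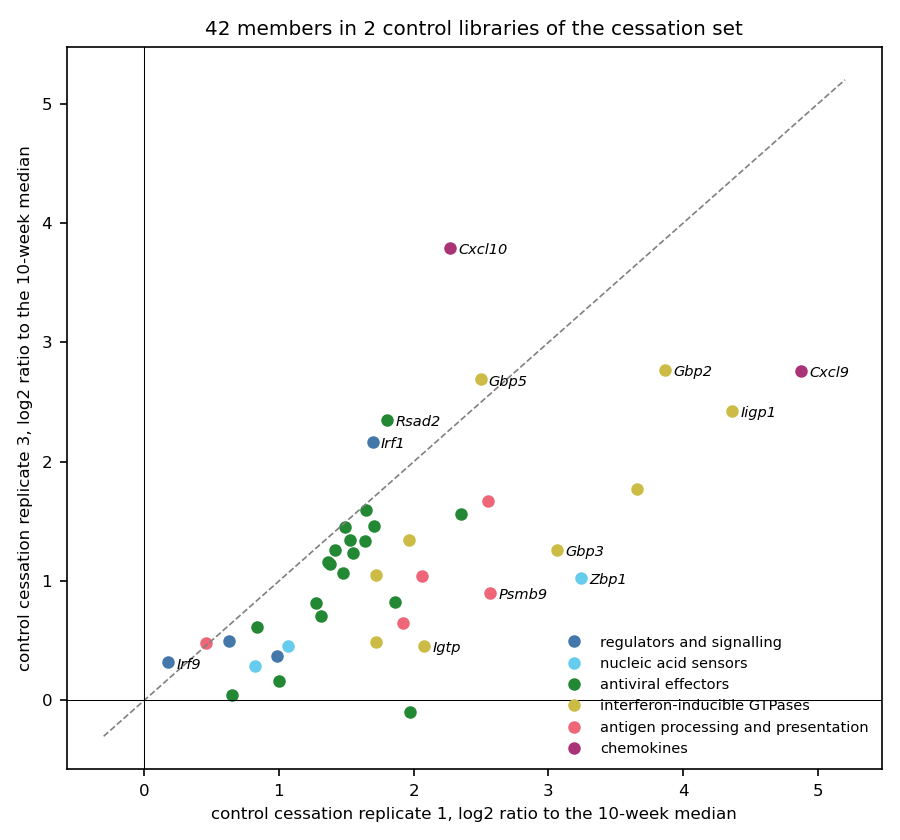
Each point is 1 of the 42 genes, placed by its log2 ratio to the 10-week median in control cessation replicate 1 (x axis) and replicate 3 (y axis), coloured by role, with a dashed line of equality. The 36 genes under the line include Iigp1, Gbp2, Cxcl9, Zbp1 and Igtp, and the 6 above it include Cxcl10, Rsad2 and Irf1.

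Group means at 10 weeks were close for most regulators and sensors. In controls, 6% EtOH and 10% EtOH they were 49.6 ± 4.69, 47.2 ± 2.24 and 51.2 ± 5.07 CPM for Stat2 (SD, n = 3) and 20.5 ± 2.73, 21.2 ± 2.52 and 18.3 ± 5.91 CPM for Irf7. For Irf1 they were 19.6 ± 4.34, 13.4 ± 2.25 and 12.9 ± 1 CPM, and the 10% EtOH libraries did not overlap the controls. For the sensor Ifih1 they were 12.8 ± 3.5, 13.3 ± 0.43 and 15.4 ± 4.11 CPM, for Dhx58 3.79 ± 1.18, 3.6 ± 1.17 and 4.18 ± 1.23 CPM, and for Zbp1 1.39 ± 0.68, 1.7 ± 0.73 and 1.53 ± 0.77 CPM, each within its spread.

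The first comparison asks whether 6% EtOH for 10 weeks altered the interferon response genes. By edgeR's quasi-likelihood test with Benjamini-Hochberg adjustment 0 of the 42 passed an adjusted p of 0.05, as did 0 of 18618 tested genes (0%), and 0 of 42 had an unadjusted p under 0.05 in either direction (1.14% of all genes higher and 1.22% lower). DESeq2 also called 0 members. The median log2 fold change of the members was -0.07, with 18 of 42 above 0 and 24 below (48.9% and 51.1% of all genes), beside -0.01 over all tested genes. Irf9 had the smallest p, with a mean of 54.0 ± 5.2 CPM (SD, n = 3) in controls and 45.7 ± 3.88 CPM with 6% EtOH, a log2 fold change of -0.24 ± 0.15 (SE, edgeR adjusted p = 1). The next by p were Irf1 at -0.54 ± 0.37, Igtp at -0.52 ± 0.43, B2m at 0.21 ± 0.19 and Isg15 at 0.39 ± 0.35, all with an edgeR adjusted p of 1. Without overlap between the groups were 2 higher members, Isg15 and Bst2 (4.76%, against 9.67% of all genes), and 2 lower members, Irf9 and Igtp (4.76%, against 9%). The GTPases had 8 of 9 members below 0, with a median of -0.36, and the antiviral effectors 8 of 19, with a median of 0.01.

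With 10% EtOH for 10 weeks the role medians differed in sign, but none of the 42 genes passed. The edgeR adjusted p-values of the members were 0.3011 or more, 0 of 18618 genes passed (0%), and DESeq2 called 0 members. At an unadjusted p under 0.05, 2 of 42 members were higher (4.76%, against 6.84% of all genes) and 0 were lower (6.59% of all genes). The antiviral effectors had a median log2 fold change of 0.34, with 17 of 19 above 0. The sensors had 3 of 3 above 0 (median 0.14), the regulators 1 of 4 (-0.24), the GTPases 3 of 9 (-0.08), antigen processing 1 of 5 (-0.21) and the chemokines 0 of 2 (-0.87). Over all 42 the median was 0.06, with 25 above 0 and 17 below (48.8% and 51.2% of all genes), beside -0.01 over all tested genes. Trim30a had the smallest p, at 0.63 ± 0.24 (edgeR adjusted p = 0.3011), with a mean of 11.5 ± 0.81 CPM in controls and 17.9 ± 6.32 CPM with 10% EtOH. Ifi35 was at 0.41 ± 0.19 (0.3592), Isg15 at 0.73 ± 0.35 (0.3720), Irf9 at -0.32 ± 0.15 (0.3742) and Ifit3 at 0.96 ± 0.54 (0.4390). Groups did not overlap for 4 higher members (Isg15, Ifi35, Rsad2 and Trim30a, 9.52% against 15.2% of all genes) and 3 lower members (Irf1, Irf9 and Oasl1, 7.14% against 15.5%). The median of the antiviral effectors was 0.12 without control 10 weeks replicate 2, which held the lowest value of 12 of the 42 members, and 0.24 with 13 of 19 above 0 without 10% EtOH replicate 3. The median over all 42 was -0.09 without control 10 weeks replicate 2.

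After cessation of 6% EtOH the group mean of nearly every interferon response gene lay below the control mean, and none passed. By edgeR 0 of 42 members and 0 of 18618 genes (0%) had an adjusted p under 0.05, DESeq2 called 0 members, and the members' adjusted p was 1. At an unadjusted p under 0.05, 10 of 42 members were lower (23.8%, against 0.779% of all genes) and 0 were higher (0.838%). The median log2 fold change was -0.48, with 39 of 42 below 0 and 3 above (52.0% and 48.0% of all genes), beside -0.01 over all genes. Cxcl9 had the smallest p, with a mean of 0.55 ± 0.02 CPM with 6% EtOH and 9.02 ± 11.1 CPM in controls, a log2 fold change of -4.02 ± 1.13 (edgeR adjusted p = 1). Stat2 was at -0.44 ± 0.14, Psmb8 at -1.11 ± 0.38, Tap1 at -0.94 ± 0.36 and Psmb9 at -1.21 ± 0.48, each with an edgeR adjusted p of 1. Groups did not overlap for 2 lower members, Stat2 and Cxcl9 (4.76%, against 2.01% of all genes), and for 0 higher members (2%). For Cxcl9 the nearest libraries had 0.57 CPM with 6% EtOH and 0.61 CPM in control cessation replicate 2, where 3 counts equal 0.18 CPM. Without control cessation replicate 1 the median was -0.10. Against control cessation replicate 2 alone it was 0.89, with 39 of 42 above 0, including all 9 GTPases (median 1.21) and 18 of 19 antiviral effectors (0.99). That sign follows from keeping the lowest of the 3 controls, so it describes how far apart the controls were and tests nothing.

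After cessation of 10% EtOH the group mean of nearly every member lay below the mean of the same 3 controls. The median log2 fold change was further below 0 in every role than with 6% EtOH. By edgeR 0 of 42 members and 0 of 18618 genes (0%) passed, the smallest adjusted p among the members was 0.7206, and DESeq2 called 0 members. Without the low-count filter edgeR called 21 members, all lower, among 407 of 36360 genes (1.119%), and 9 for 6% EtOH, but it then gave all 36360 genes an infinite prior weight, so a gene's own spread between replicates did not enter. With a lighter filter (minimum count 5) it called 0 for both doses. At an unadjusted p under 0.05, 28 of 42 members were lower (66.7%, against 5.07% of all genes) and 0 were higher (1.59%). The median log2 fold change was -1.04, with 41 of 42 below 0 and 1 above (52.1% and 47.9% of all genes), beside -0.02 over all genes. By role the medians were -0.61 for the regulators, -0.63 for the sensors, -0.93 for the antiviral effectors, -1.46 for the GTPases, -1.40 for antigen processing and -2.85 for the chemokines. Bst2 had a mean of 8.65 ± 1.23 CPM with 10% EtOH and 18.5 ± 7.58 CPM in controls, a log2 fold change of -1.09 ± 0.28 (edgeR adjusted p = 0.7206). Gbp2 was at -2.80 ± 0.71, Stat2 at -0.54 ± 0.14 and Psmb8 at -1.41 ± 0.38, with the same edgeR adjusted p of 0.7206, and Cxcl9 was at -3.81 ± 1.11 (0.7429). No overlap between groups was seen for 2 lower members, Stat2 and Igtp (4.76%, against 3.97% of all genes), and for 0 higher members (2.49%). The median was -0.56 without control cessation replicate 1, and 0.33 against replicate 2 alone, with 33 of 42 members above 0, a sign that again follows from which control was kept. Without replicate 2 it was -1.43, and 18 members passed in edgeR, all lower, among 191 of 19393 genes (0.985%). Dropping replicate 2 removes the lowest of the 3 controls, so that count also depends on which controls were kept.

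**Figure D4:**
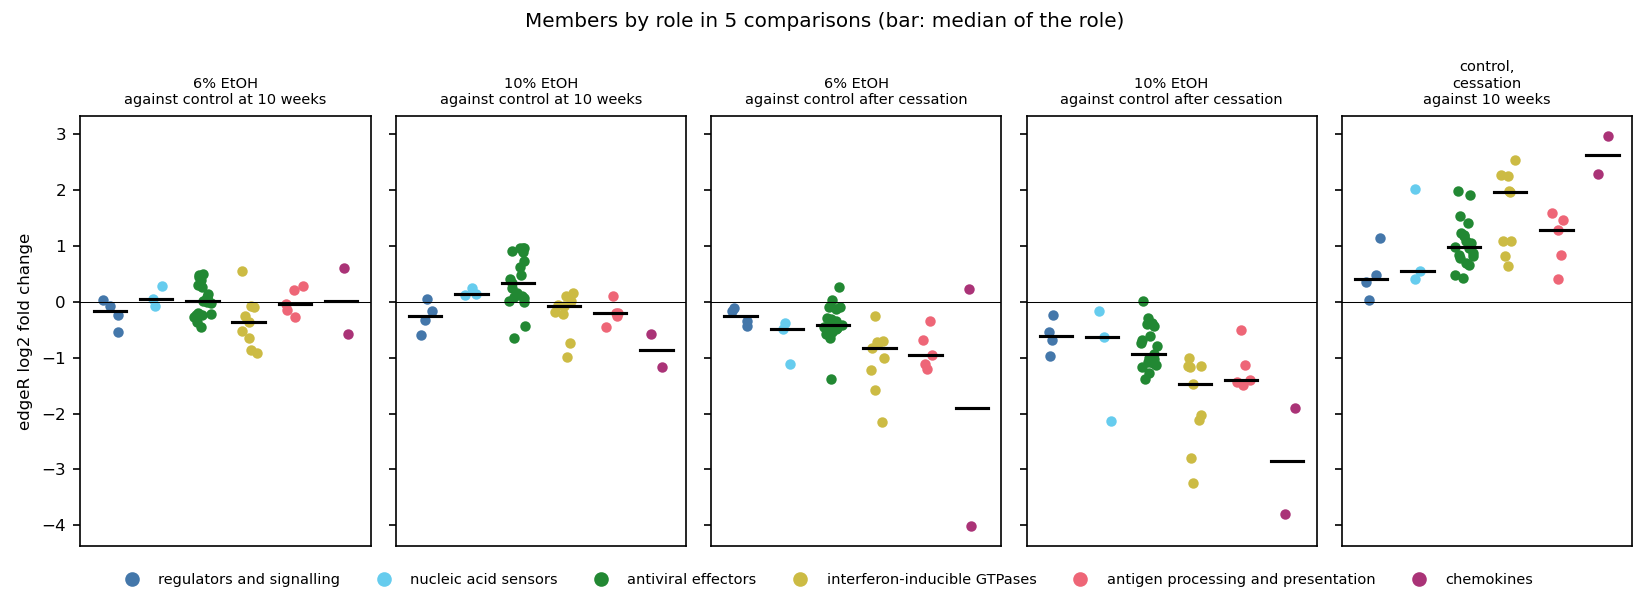
edgeR log2 fold changes of the 42 genes in 5 comparisons, 1 point a gene, placed and coloured by role, with a bar at the median of each role. The points lie around 0 in both comparisons of 10 weeks, with the antiviral effectors mostly above it with 10% EtOH. They lie mostly below 0 in both cessation comparisons and above 0 in controls over time.

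The doses were also set against each other. At 10 weeks 25 of 42 members were above 0, as 10% minus 6% EtOH, and 17 below (49.3% and 50.6% of all genes). Of them 0 of 42 members and 0 of 18618 genes (0%) passed in edgeR, and DESeq2 called 0 members. At an unadjusted p under 0.05, 2 of 42 members were higher with 10% EtOH (1.64% of all genes) and 0 lower (1.19%). Those were Trim30a at 0.54 ± 0.24 and Ifit1 at 1.16 ± 0.51 (edgeR adjusted p = 0.994 for both). Rsad2 at 0.96 ± 0.57, Cxcl9 at -1.78 ± 1.11 and Usp18 at 0.47 ± 0.31 followed, with the same edgeR adjusted p. All libraries of the groups were apart for 4 higher members, Ifi35, Rsad2, Gbp6 and Igtp (9.52%, against 7.22% of all genes), and 1 lower member, Psmb8 (2.38%, against 6.39%). Cxcl9 was at 0.22 without 6% EtOH 10 weeks replicate 3, which held 4.41 CPM.

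After cessation the log2 fold change, as 10% minus 6% EtOH, was below 0 for 36 of 42 members and above 0 for 6 (52.5% and 47.5% of all genes). No control enters this comparison, but the 6% EtOH libraries were not alike. Their median log2 ratios to the 10-week median were 0.65, 0.64 and 0.03 in replicates 1, 2 and 3, beside -0.23, 0.16 and 0.12 with 10% EtOH. By edgeR 0 of 42 members and 0 of 18618 genes (0%) passed, and DESeq2 called 0 members. At an unadjusted p under 0.05, 3 of 42 members were lower with 10% EtOH (7.14%, against 5.24% of all genes) and 0 higher (2.61%). They were Rsad2 at -1.66 ± 0.56, Cxcl10 at -2.13 ± 0.73 and Irf1 at -0.81 ± 0.36, each with an edgeR adjusted p of 0.6344. Oasl2 at -0.67 ± 0.37 and Gbp2 at -1.22 ± 0.70 followed (0.6380 and 0.6412). Without 6% EtOH cessation replicate 1, Rsad2 was at -0.97, Irf1 at -0.63, Oasl2 at -0.55 and Gbp2 at -0.94. Cxcl10 ranged from -3.08 to -1.77 when 1 library was left out. Groups did not overlap for 8 lower members (19.0%, against 5.42% of all genes), which were Zbp1, Oas3, Oasl2, Xaf1, Gbp2, Gbp3, Nlrc5 and Cxcl10, and for 1 higher member, Cxcl9 (2.38%, against 3.16%). Cxcl9 had 0.60 to 0.66 CPM with 10% EtOH and 0.53 to 0.57 CPM with 6% EtOH, where 3 counts equal at least 0.197 CPM.

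Whether the effect of a dose differed between the times was tested as an interaction. For 6% EtOH 0 of 42 members and 0 of 18618 genes (0%) passed in edgeR (smallest adjusted p of a member 0.9996), DESeq2 called 0 members, and at an unadjusted p under 0.05 there were 4 lower members (9.52%, against 1.45% of all genes) and 0 higher (1.56%). For 10% EtOH 0 of 42 and 0 of 18618 genes (0%) passed (smallest adjusted p of a member 0.6449), DESeq2 called 0 members, and 13 members were lower at an unadjusted p under 0.05 (31.0%, against 3.79% of all genes) and 0 higher (3.66%). The smallest p was that of Isg15 for 10% EtOH, at -1.67 ± 0.49 (edgeR adjusted p = 0.6449), which was -0.41 without control cessation replicates 1 and 3. Trim30a was at -1.02 ± 0.33, Bst2 at -1.21 ± 0.40, Rsad2 at -2.34 ± 0.79 and Stat2 at -0.58 ± 0.20 for 10% EtOH, with the same edgeR adjusted p. For 6% EtOH Cxcl9 was at -4.63 ± 1.52, Psmb8 at -1.39 ± 0.53, Bst2 at -0.95 ± 0.39, B2m at -0.55 ± 0.26 and Trim30a at -0.61 ± 0.34, with an edgeR adjusted p of 0.9996. The interaction was below 0 for 36 of 42 members and above 0 for 6 with 6% EtOH (49.8% and 50.2% of all genes), and below 0 for 40 and above 0 for 2 with 10% EtOH (53.1% and 46.9%). These contrasts share the controls of the comparisons above.

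Controls after cessation were set against controls at 10 weeks, a comparison in which no mouse had ethanol by the labels. All 42 members had a log2 fold change above 0 and 0 below (53.8% and 46.2% of all genes), with a median of 1.09 beside 0.05 over all genes. By edgeR 0 of 42 members passed, beside 22 of 18618 genes (0.118%), and the smallest adjusted p of a member was 0.09453. At an unadjusted p under 0.05, 30 of 42 were higher (71.4%, against 12.1% of all genes) and 0 lower (8.14%), and DESeq2 called 17 members, all higher, among 993 genes (5.334%). Without the low-count filter edgeR called 28, with the same limit as above, and with the minimum count of 5 it called 0. Bst2 had a mean of 8.65 ± 0.65 CPM at 10 weeks and 18.5 ± 7.58 CPM after cessation, a log2 fold change of 1.09 ± 0.28 (edgeR adjusted p = 0.09453). Gbp5 was at 2.26 ± 0.58 (0.09453), Psmb8 at 1.30 ± 0.38 (0.1143), Nlrc5 at 1.59 ± 0.46 and Rsad2 at 1.91 ± 0.56 (0.1144 for both). Groups did not overlap for 4 higher members, Bst2, Trim30a, Gbp5 and Cxcl10 (9.52%, against 12% of all genes), and for 0 lower members (13.1%). Without control cessation replicate 2, 34 members passed in edgeR among 2724 of 19393 genes (14.05%), a count that depends on dropping the lowest control. With replicate 2 as the only control after cessation the median was -0.31, with 36 of 42 below 0. The 10-week and cessation libraries also differed in immediate early genes, which cells switch on within minutes, with list means of -1.54 to -0.44 at 10 weeks and 0.37 to 2.11 after cessation on a centred log2 scale. Of that list Atf3 at 5.3 ± 0.67 (edgeR adjusted p = 0.005122), Dusp1 at 3.82 ± 0.58 (0.01865), Junb at 1.9 ± 0.3 (0.02906) and Btg2 at 2.42 ± 0.43 (0.0417) passed in controls over time. The part of the immediate early genes in this comparison was not tested.

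The interferons themselves were almost absent from the reads. Of 21 interferon genes in the tables, 16 had no count in any library and 0 reached the level needed for a test. Ifng, which encodes interferon gamma, had 0 counts in all 9 libraries of 10 weeks. After cessation it had 2, 0 and 6 counts in controls, 1, 5 and 1 with 6% EtOH and 0, 2 and 0 with 10% EtOH. A count of 0 allows up to 3 counts, which is 0.151 to 0.283 CPM in these libraries, counting error only, so a level below that was not detectable at this depth. The 18 type I interferon genes together had 0 to 6 counts a library, most of them from Ifnk and Ifnz, with 24 and 12 counts in all.

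The list of receptors, kinases and other signalling genes, inhibitors such as Socs3 among them, had a smaller range. Its list mean was also highest in control cessation replicates 1 and 3, but its summed level was not. That sum was 1111 and 1090 CPM there, against 1127 to 1137 CPM with 10% EtOH at 10 weeks. The list mean of these 19 genes, all tested, was 0.37, 0.00 and 0.31 on the centred log2 scale in control cessation replicates 1, 2 and 3, 0.21, 0.23 and 0.11 with 6% EtOH after cessation and -0.03, 0.07 and -0.01 with 10% EtOH. In controls over time 10 of 19 were above 0 (median 0.02), while Socs3, which is part of the list mean, was at 4.72. In 10% EtOH against control after cessation 16 of 19 were below 0 (median -0.30), and 4 were lower at an unadjusted p under 0.05, beside 5.07% of all genes. Stat3, a STAT protein that answers other cytokines too, had the smallest p of the list there, at -0.54 ± 0.15 (edgeR adjusted p = 0.7368), with 177, 156 and 230 CPM in controls and 152, 121 and 114 CPM with 10% EtOH, which did not overlap. In the 10% EtOH interaction 5 of 19 were lower at an unadjusted p under 0.05, beside 3.79% of all genes. Among them was Ifngr1 at -0.63 ± 0.15 (edgeR adjusted p = 0.6449), whose log2 fold change with 10% EtOH at 10 weeks was 0.43 ± 0.11 (0.2991). Stat3 and Ifngr1 were singled out after their values were seen. The receptor genes Ifnar1 and Ifngr1 had 58.9 to 63.6 and 82.2 to 85.6 CPM in the 3 controls after cessation, all within or close to their ranges of 61.0 to 71.5 and 71.8 to 109.5 CPM at 10 weeks. Of the list Socs3 alone, a feedback inhibitor of cytokine signalling, passed, in controls over time, where it rose with a log2 fold change of 4.72 ± 0.70 (edgeR adjusted p = 0.01819). Socs3 had 0.21 to 3.30 CPM at 10 weeks and 31.5, 13.1 and 69.9 CPM in controls after cessation, and the EtOH libraries after cessation were as high, at 20.1 to 70.3 CPM. Among 17 tested genes of upstream nucleic acid sensing the median was -0.13 in controls over time and -0.08 in 10% EtOH against control after cessation, and 0 passed in edgeR.

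Most interferon-induced genes outside the 42 moved in the same direction as the members. Of 70 listed, 62 were tested, and 0 passed in edgeR in any comparison. The list holds relatives that share sequence with members, such as Ifit3b, Oas1g and Trim30d. It also uses the same controls, so it is no separate check. In controls over time 56 of 62 were above 0 (median 0.87), beside 53.8% of all genes. After cessation 56 of 62 were below 0 with 10% EtOH (median -0.55, beside 52.1% of all genes) and 53 of 62 with 6% EtOH (-0.29, beside 52.0%). For the MHC class I list, which also holds Calr, Pdia3 and Erap1 and had 15 of 16 genes tested, the medians were 0.69, -0.76 and -0.40 in the same 3 comparisons. H2-K1, a classical MHC class I heavy chain, had 273 to 462 CPM at 10 weeks, 827, 395 and 786 CPM in controls after cessation, 544, 542 and 369 CPM with 6% EtOH and 457, 338 and 390 CPM with 10% EtOH.

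Markers of several other cell types, T and NK cells and macrophages among them, moved with the interferon response genes, and their part in the results was not tested. In bulk tissue, fewer cells of a type and less RNA per cell cannot be told apart. T and NK cell markers, 13 of 15 tested, had their highest list mean in control cessation replicate 1, at 1.67 on the centred log2 scale, followed by control cessation replicate 3 at 0.42 and all other libraries at 0.22 or below. In 6% EtOH cessation replicates 1 and 2 that list mean was -0.10 and 0.22, where the member mean was 0.52 and 0.45. Leaving out Klrb1c, which alone had 91.8 to 635 CPM and followed the principal cells, the other 12 summed to 44.5 CPM in control cessation replicate 1 and 16.5 CPM in replicate 3. The range was 13 to 13.3 CPM in controls, 10.8 to 13.8 CPM with 6% EtOH and 9.24 to 12 CPM with 10% EtOH at 10 weeks. After cessation it was 10.3 to 44.5 CPM in controls, 12.1 to 13.7 CPM with 6% EtOH and 9.42 to 13 CPM with 10% EtOH. Gzmb, a killing enzyme of cytotoxic cells, had 8.43 CPM in control cessation replicate 1 and 0.38 to 2.27 CPM in all others, and Cd8a had 3.56 CPM there and 0.12 to 1.26 CPM in all others. Control cessation replicate 3 had 1.92 CPM of Gzmb and 1.26 CPM of Cd8a. The perforin gene Prf1 was low throughout, at 0 to 0.35 CPM, and was at 0 in 4 libraries.

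Endothelial markers, 12 of 12 tested, summed to 236, 75 and 398 CPM in control cessation replicates 1, 2 and 3, 393, 225 and 99.9 CPM with 6% EtOH after cessation and 115, 139 and 143 CPM with 10% EtOH. At 10 weeks they summed to 65.7 to 112 CPM in controls, 84.7 to 118 CPM with 6% EtOH and 99.8 to 105 CPM with 10% EtOH. The libraries with the most endothelial signal, control cessation replicate 3 and 6% EtOH cessation replicate 1, were the ones with the highest Rsad2 and among those with the highest Cxcl10 and Irf1, and were also the ones lowest in principal cell markers. Most members did not peak in them, since control cessation replicate 1 held the highest value of 32 of the 42. Control cessation replicate 3 held that of 5 and 6% EtOH cessation replicate 1 that of 2. Macrophage markers, 15 of 15 tested, summed to 673, 304 and 554 CPM in controls after cessation, 554, 411 and 329 CPM with 6% EtOH and 302, 374 and 483 CPM with 10% EtOH. The 10-week sums were 262 to 295 CPM in controls, 319 to 336 CPM with 6% EtOH and 321 to 481 CPM with 10% EtOH. The B cell list, 4 of 8 tested, was highest in 10% EtOH cessation replicates 2 and 3, at 1.75 and 1.98, where the interferon genes were not high. The neutrophil list had 1 of 7 genes tested, and S100a8 was at 0 in 16 of 18 libraries. The part of these cell types in the levels of the 42 genes was not tested.

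**Figure D5:**
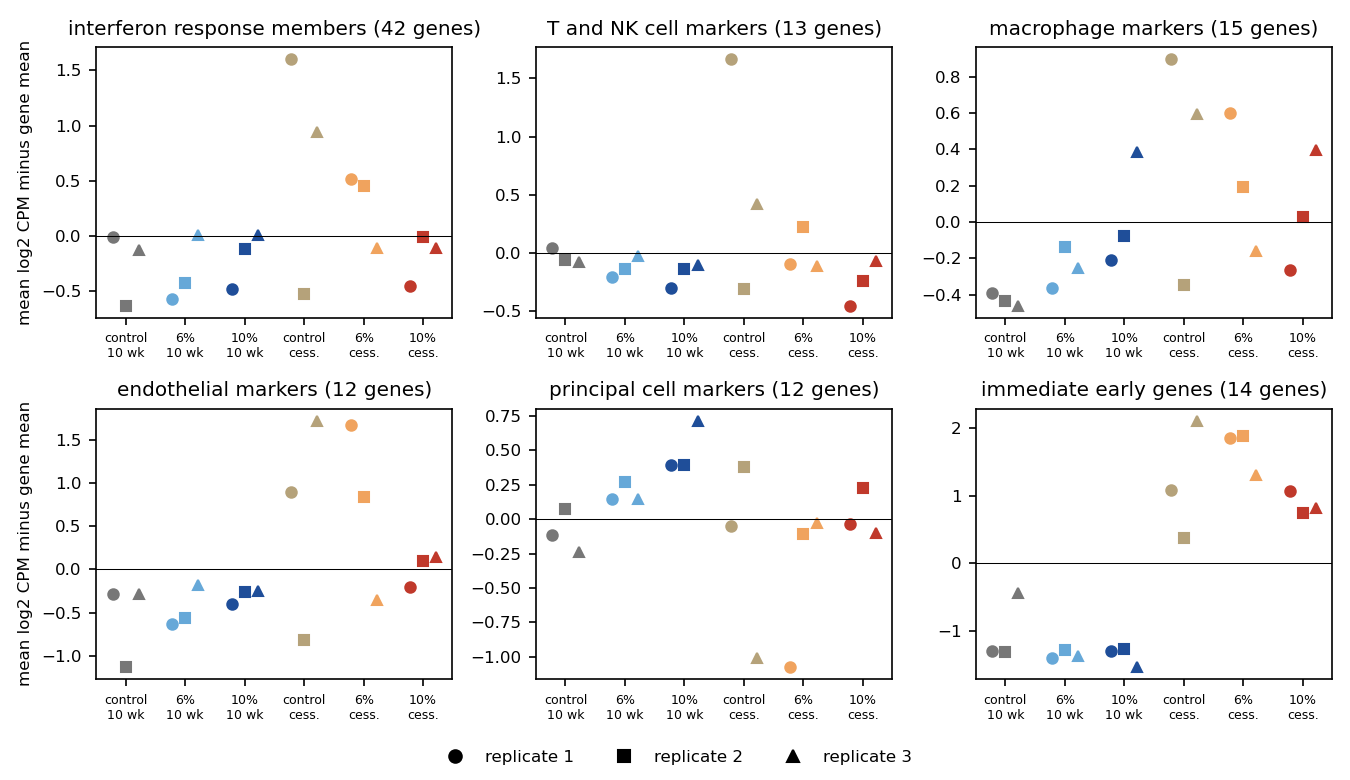
Mean centred log2 CPM of the 42 interferon response genes and of 5 marker lists in each library, by group, with marker shape for the replicate. The member mean and the T and NK cell mean are both highest in control cessation replicate 1, endothelial means are highest in control cessation replicate 3 and 6% EtOH cessation replicate 1, and immediate early genes are above 0 in every library after cessation and below 0 in every library of 10 weeks.

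Over the 18 libraries with group means removed, the member mean had a Pearson correlation of 0.86 with the T and NK cell list, 0.84 with macrophages, 0.81 with fibroblasts, 0.79 with endothelial cells, 0.77 with dendritic cells and 0.74 with red blood cells. It was 0.44 to 0.48 with basal cells, adipocytes, clear and narrow cells and immediate early genes. The correlation was 0.27 with B cells, -0.11 with plasmacytoid dendritic cells and -0.41 with principal cells. Of the plasmacytoid dendritic cell list 5 of 7 genes were tested, and they did not move together. In controls over time 3 were above 0 and 2 below. They ranged from Pacsin1 at -1.004 to Siglech at 1.507 (edgeR adjusted p = 0.1047 and 0.121), so that list mean averages opposite movements. The red blood cell markers, 5 of 5 tested, summed to 138, 34.1 and 138 CPM in control cessation replicates 1, 2 and 3, to 67.2 to 167 CPM with 6% EtOH and 29.5 to 120 CPM with 10% EtOH after cessation, and to 15.7 to 139 CPM at 10 weeks. These are descriptions over 18 points, of which control cessation replicates 1 and 3 are the most distant. Each member was set against the mean of the other 41 in the same way. The highest were Gbp2 at 0.98, Parp14 at 0.96 and Psmb8 at 0.95, and they were 0.96, 0.93 and 0.93 without control cessation replicate 1. The lowest were Irf9 at 0.11, Ifi35 at 0.42 and Oasl1 at 0.45, and Ifi35 was at 0.05 without control cessation replicate 1. The 10 genes outside the 42 with the most similar pattern to the member mean were Ifi47 (0.96), Tgtp2, Slfn5, Thbd, Elf4, Cpz, H2-Q7, Cybb, Tgtp1 and Parp9 (0.91). Of those, Ifi47, Tgtp1, Tgtp2, Slfn5 and Parp9 are on the list of other interferon-induced genes, and H2-Q7 is a MHC class I gene. Thbd, which encodes thrombomodulin of the vessel wall, had 50.6, 9.20 and 35.3 CPM in controls after cessation, 40.1, 23.9 and 12.7 CPM with 6% EtOH and 12.3, 23 and 22.9 CPM with 10% EtOH, against 5.86 to 13.5 CPM at 10 weeks.

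Some members share sequence with a neighbour, and how the counting divided such reads was not named in the labels. The share of 75-base stretches of the transcript that also occur in another gene was 55.2% for Gbp6, 47.6% for Oas1a (with Oas1g), 41.1% for Ifit3 (with Ifit3b), 12.4% for Rtp4, 11.4% for Gbp7 (with Gbp3) and 8.37% for Igtp (with Irgm2), and at most 5.44% for the other 36. Counts of Gbp6, Oas1a and Ifit3 are therefore uncertain.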

How the data were processed

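Per the labels' protocols, RNA of the caput epididymis was purified with Qiagen RNeasy and read on an Illumina HiSeq. The authors deposited raw read counts per gene, 1 table a library. The submitters' processing notes name Trimmomatic, STAR, featureCounts and the GRCm39 (mm39) build. Tool versions, gene annotation, strandedness and the rule for multimapping reads were not given there. Samples were grouped by their labels.

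Counts were scaled by TMM in edgeR 4.0.16 (R 4.3.3), filtered with filterByExpr (minimum count 10, minimum total 15) and fitted with 1 term a group over all 18 libraries by the robust quasi-likelihood test. p-values were adjusted by Benjamini-Hochberg over 18618 genes, with a threshold of 0.05, in 9 comparisons. CPM values use TMM library sizes, and log2 CPM a prior count of 2. A standard error is the log2 fold change divided by the root of the F statistic. Members named with a test are the 5 of smallest p in each comparison (mean log2 CPM 1 or more), and every member is given with its level. List genes are named where they passed, and some that did not pass are named as examples. The 10 most similar genes outside the members are named by correlation.

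The members and lists were chosen with earlier results of these data known. Alternatives were DESeq2 1.42.0, other size factors, no filter, a lighter filter (added after seeing the data), libraries of 1 time only, length and GC trends removed, and leaving out each library.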

Additional observations from a re-analysis of the deposited data

How the results depend on the processing

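The counts of members called and the medians changed with the control cessation libraries and the filter. Without the low-count filter edgeR set the prior degrees of freedom to infinity for all 36360 genes (median 5.911 in the reported fit), so each gene took the trend's spread in place of its own, and its calls do not measure replicate error. It called 1 member for 6% EtOH (0.121% of all genes) and 2 for 10% EtOH (2.024%) at 10 weeks, 9 for 6% EtOH (0.1403%) and 21 for 10% EtOH (1.119%) after cessation, 5 for 10% against 6% EtOH after cessation (1.609%), 3 and 13 for the 6% and 10% EtOH interactions (0.242% and 1.059%), and 28 for controls over time (4.785%). With a minimum count of 5, an alternative added after seeing this, the prior was finite for all 21755 genes and 0 members were called in any comparison. DESeq2 called 17 members for controls over time (5.334% of all genes); the cause was not tested. Leaving out 1 library gave 0 to 18 members for 10% EtOH after cessation and 0 to 34 for controls over time, the highest being without control cessation replicate 2 in both (0.9849% and 14.05% of all genes called). Those highest counts depend on dropping the lowest control. The medians ranged from -1.433 to -0.5577 for 10% EtOH and -0.8411 to -0.09655 for 6% EtOH after cessation, from 0.546 to 1.469 for controls over time, and across 0 at 10 weeks, from -0.2075 to 0.07257 for 6% EtOH and -0.0861 to 0.1566 for 10% EtOH. Cxcl9 in 10% against 6% EtOH at 10 weeks ranged from -2.306 to 0.218, the latter without 6% EtOH replicate 3.

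Leaving out control cessation replicates 1 and 3 together was chosen after seeing the data; it leaves the lowest control alone, assumed to vary like the other groups, so the signs below follow from that choice. The medians were then 0.8895 for 6% EtOH, 0.3329 for 10% EtOH and -0.312 for controls over time. Signs reversed for Psmb8 (0.3746), Psmb9 (0.6668) and Tap1 (0.3631) with 6% EtOH, for Gbp2 (0.5763), Psmb8 (0.09777) and Cxcl9 (0.06479) with 10% EtOH, for Psmb8 in the 6% EtOH interaction (0.09726), and for Rsad2 (-0.1379), Psmb8 (-0.212) and Nlrc5 (-0.3936) in controls over time. In all, 170 summary values kept their side and 14 moved; of single genes 559 values kept their direction and side of the threshold, 38 passed it where the reported fit did not, and 11 reversed. No paired analysis was possible because the labels carry sample identifiers and no shared replicate numbers. Some members rest on few reads, with 0 to 66 a library for Oas3 and 4 to 43 for Oasl1.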
